A study of Homo sapiens with 2 samples.

Results

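The ATF4-CHOP branch of the cellular stress response was described through 10 genes in SF-539 cells, a human glioblastoma (GBM) line, with and without knockdown of FKBP9, a peptidyl-prolyl isomerase of the endoplasmic reticulum (ER). The genes were ATF4, DDIT3 (which encodes CHOP), ATF3, CEBPB, NUPR1, TRIB3, PPP1R15A, CHAC1, DDIT4 and SESN2, found by symbol, and they are 10 of the 58735 genes in the deposited table. They were chosen by their names as members of this pathway and also from the measured values of this contrast, because CHAC1 has one of the highest ratios of the dataset. Differences between the 2 conditions are therefore given for them as a description, without a test.

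SF-539 cells were transduced with a pGIPZ lentivirus that carried either a non-targeting shRNA (shControl) or one directed at FKBP9 (shFKBP9), selected with puromycin and grown in DMEM with 10% FBS at passages 15 to 18. Both groups carry the vector and went through the selection. The stable cells are called clones, and how many clones went into a library is not given in the sources used here. Several shRNAs against FKBP9 were used in the study, and which of them was sequenced is likewise not given. There was 1 library per condition, so no difference below has a replicate check within these libraries. Effects of the knockdown and of clonal origin cannot be told apart in them. The paper reports CHAC1, DDIT3 and IL6 mRNA as higher by RT-qPCR in FKBP9-depleted cells of this line and of another GBM line. Those measurements are not used here. The question put to these libraries was whether loss of FKBP9 touches ER stress signalling.

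Values are FPKM, fragments (sequenced read pairs) per kilobase of gene, scaled to the size of the library. FPKM multiplied by gene length gave whole multiples of 1 step in each library, and the number of fragments on each gene was recovered from it. The shControl library held 18116873 fragments on genes and the shFKBP9 library 17158514, of which 20955 and 22400 lay on the 10 genes. A level is given with its exact Poisson interval, and a difference as the log2 ratio of shFKBP9 to shControl after 0.1 FPKM was added to both. Its exact Clopper-Pearson interval comes from the fragments without this addition, so at low levels it is not centred on the printed ratio. All intervals are at 95% and cover counting error only. FKBP9 itself, on chromosome 7, stood at 49.8 FPKM (4659 fragments) in shControl and at 4.68 FPKM (415 fragments) in shFKBP9, a log2 ratio of -3.38 (-3.56 to -3.27), with 9.39% of the control level left. Among markers of the cell line, VIM stood at 277 FPKM in shControl and 295 FPKM in shFKBP9 and CD44 at 48.6 and 55.6 FPKM, and NES, a neural progenitor marker, at 2.36 and 2.17 FPKM. The glial markers GFAP, OLIG2, SOX2 and S100B were under 1 FPKM in both libraries. Of 4 epithelial markers only KRT8 reached 1 FPKM (1.28 and 1.09 FPKM), with CDH1 at 0 and 1 fragments, although the labels call the cells epithelial.

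In the integrated stress response, kinases that sense ER stress, amino acid shortage, haem deficiency or double-stranded RNA phosphorylate the translation factor eIF2α. General translation then falls, while translation of the ATF4 message rises through its upstream reading frames, so that much of the control of ATF4 is not visible in its mRNA. ATF4 is a bZIP activator that pairs with C/EBP proteins on composite elements and induces genes of amino acid supply and, with CHOP, genes of feedback and cell death. Several of the 10 genes also answer to other signals, among them p53 (SESN2, ATF3), hypoxia and glucocorticoids (DDIT4) and inflammatory cytokines (CEBPB).

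The element through which ATF4 and its partners act, the C/EBP-ATF response element (CARE), was searched for in 9 of the members because the choice of genes by level did not use it. Windows of hg38 from 1000 bases before to 500 bases after the start of the canonical transcript (GENCODE release 44) were searched on both strands for TGATGCAA, whose reverse complement is TTGCATCA. The letters occurred in 5 of the 9 windows described here, against 2.62% of 20046 windows of protein-coding genes. The genes had been collected as known members of the ATF4 pathway, so this share is a property of the choice and was not tested. The stretches below are printed along the strand of the gene with the match in capitals. They show a single copy in CHAC1, DDIT3 and DDIT4, 2 copies in ATF3 and a repeated stretch in TRIB3, of which the first is printed.
CHAC1, chr15:40953254-40953277, plus strand: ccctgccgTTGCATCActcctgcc
DDIT3, chr12:57520793-57520840, minus strand: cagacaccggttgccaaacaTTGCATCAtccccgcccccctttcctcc
ATF3, chr1:212608732-212608755, plus strand: aaaaggggTGATGCAAcgctctcc
ATF3, chr1:212608538-212608585, plus strand: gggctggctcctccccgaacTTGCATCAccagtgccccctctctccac
TRIB3, chr20:380884-380907, plus strand: gctccggtTTGCATCAcccggacc
DDIT4, chr10:72272958-72273005, plus strand: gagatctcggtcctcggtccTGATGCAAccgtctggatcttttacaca

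The match in CHAC1 began 209 bases before the start of the canonical transcript, in a stretch that GENCODE also annotates as exon of another CHAC1 transcript. The one in DDIT3 began 306 bases before the start, and the one in DDIT4 lay 946 bases before it. ATF3 had matches at 21 and 203 bases before the start. In TRIB3 the same 24 bases occurred 3 times, with first matched bases at 132, 165 and 198 after the start of the canonical transcript, inside its UTR and 337 to 451 bases before the starts that RefSeq gives. TRIB3 was the only 1 of the 20046 windows with 3 or more matches to TGATGCAA, and 26 of 20020 genes had 2 or more. With any base at the sixth position (TGATGNAA, of which TGATGCAA is one form), SESN2 was added at 296 bases before its start, giving 6 of 9 genes against 13.9% of windows. ATF4, CEBPB and PPP1R15A had no match to either form. PPP1R15A had a cAMP response element, TGACGTCA, 58 bases before its start, in the stretch printed next, and 3.98% of windows hold these letters.
PPP1R15A, chr19:48872355-48872378, plus strand: tctcttcgTGACGTCAgcacgccg

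The ER stress response element of the ATF6 and XBP1 branch (ERSE, CCAAT and CCACG with 9 bases between) was in none of the 9 windows and in 0.165% of all. In the RefSeq promoters (GRCh38.p14, 250 bases before to 50 after each start), which 9 of the 10 genes matched, TGATGCAA was found in CHAC1 alone, against 0.866% of 35116 promoters, and ATF3 held TGATGNAA.

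**Figure D1:**
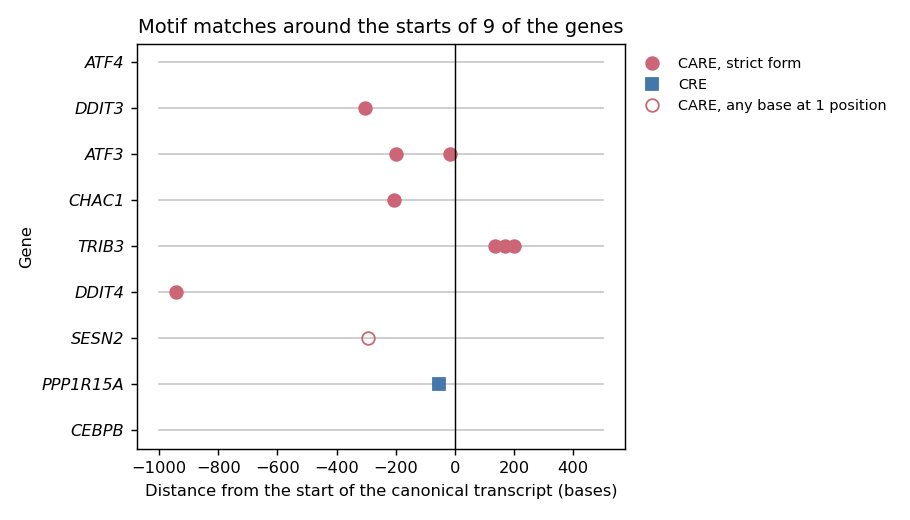
Motif matches in windows around the canonical starts of 9 of the genes. The horizontal axis is the distance from the start in bases, negative upstream, and each grey line is 1 gene; filled circles mark TGATGCAA on either strand, the open circle TGATGNAA with another base, and the square the cAMP response element. TRIB3 shows 3 evenly spaced matches after its start, and ATF4 and CEBPB show none.

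CHAC1 encodes a γ-glutamylcyclotransferase that degrades glutathione and is a late target of the ATF4, ATF3 and CHOP cascade. The gene (ENSG00000128965) lies on the plus strand of chromosome 15, chr15:40952962-40956519, with 3 exons in its canonical transcript. Its level was 2.07 FPKM (1.63 to 2.58) from 77 fragments in shControl and 7.92 FPKM (7.02 to 8.91) from 280 fragments in shFKBP9. The 2 intervals were far apart. The log2 ratio was 1.89 (1.57 to 2.32), and the fold without the addition was 3.84. CHAC1 was the only member more than 2-fold higher, where 2.02% of the 12741 genes that reached 1 FPKM in one or both libraries were. With 0.1 FPKM added, it ranked 2 of 11575 protein-coding genes with at least 50 fragments in both libraries together. Only the cytokine gene IL6 stood above it, at 15 and 67 fragments (log2 ratio 1.99). Below it came AC007325.4 with 19 and 71 fragments (1.86), the chemokine gene CCL4 with 11 and 42 (1.71) and the smooth muscle actin gene ACTG2 with 124 and 374 (1.62). IL6, AC007325.4 and CCL4 rested on fewer fragments than CHAC1, and 23 of the 11575 genes were more than 2-fold higher. The order of these low genes and CHAC1 depends on the size of the addition, and the rank was not taken with another.

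The transcription factors of the branch were higher in shFKBP9 with the exception of CEBPB. ATF4 (ENSG00000128272, chr22:39519695-39522685, plus strand, 3 exons), the activator at the head of the branch, stood at 92.7 FPKM (89.9 to 95.5) in shControl and 130 FPKM (126 to 133) in shFKBP9, from 4219 and 5599 fragments. The intervals did not overlap, and the log2 ratio was 0.48 (0.43 to 0.54), a fold of 1.40. ATF4 has processed pseudogenes, of which 4 in the table held 1 fragment in shControl and 8 in shFKBP9 together. Adding them gave a log2 ratio of 0.49.

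DDIT3 (ENSG00000175197, chr12:57516588-57521737, minus strand, 4 exons) encodes CHOP, a C/EBP family factor that is induced late in ER stress and favours cell death. It stood at 14.2 FPKM (12.8 to 15.8) in shControl and 19.7 FPKM (17.9 to 21.6) in shFKBP9, from 337 and 442 fragments. The log2 ratio was 0.47 (0.26 to 0.68), close to that of ATF4, and the intervals of the 2 levels did not overlap. In GENCODE, 31.6% of its exonic bases are shared with exons of MARS and MBD6. The genes in the table that overlap it are MARS, MBD6, MIR616 and AC022506.1, and these held 4119 and 4056 fragments together. Exons of MIR616 and AC022506.1 were not counted in the share. The strand setting of the counting is not given in the sources used here, so fragments of DDIT3 and of these neighbours cannot be fully told apart.

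ATF3 (ENSG00000162772, chr1:212565334-212620777, plus strand, 4 exons) is a bZIP factor induced by ATF4 and by many acute stimuli. It stood at 2.87 FPKM (2.50 to 3.29) and 3.75 FPKM (3.31 to 4.23), from 210 and 260 fragments, with a log2 ratio of 0.37 (0.12 to 0.65). The intervals of its levels were barely apart.

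CEBPB (ENSG00000172216, chr20:50190734-50192689, plus strand, a single exon) encodes C/EBPβ, a bZIP partner of ATF4 that also serves inflammatory transcription. It stood at 113 FPKM (109 to 116) in shControl and 101 FPKM (97.5 to 104) in shFKBP9, from 3995 and 3388 fragments. CEBPB was the only member lower in shFKBP9, with a log2 ratio of -0.16 (-0.23 to -0.09). Its antisense gene CEBPB-AS1 held 23 and 16 fragments.

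The co-regulators were both higher. NUPR1 (ENSG00000176046, chr16:28532708-28539174, minus strand, 3 exons) encodes a small chromatin-associated stress protein. It stood at 3.17 FPKM (2.84 to 3.54) in shControl and 4.88 FPKM (4.45 to 5.34) in shFKBP9, from 326 and 475 fragments. Its log2 ratio of 0.60 (0.41 to 0.83) was the second highest of the 10 and ranked 145 among the 11575 genes. TRIB3 (ENSG00000101255, chr20:362835-397559, plus strand, 4 exons) encodes a pseudokinase that binds ATF4 and CHOP and dampens their activity. It stood at 2.86 FPKM (2.46 to 3.32) and 3.61 FPKM (3.14 to 4.13), from 178 and 213 fragments. The intervals of its levels overlapped, and the log2 ratio was 0.33 (0.04 to 0.63).

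PPP1R15A (ENSG00000087074, chr19:48872392-48876057, plus strand, 3 exons) encodes GADD34, the inducible subunit that brings protein phosphatase 1 to eIF2α and closes the feedback loop. It stood at 11.4 FPKM (10.6 to 12.4) in shControl and 15.2 FPKM (14.2 to 16.3) in shFKBP9, from 641 and 809 fragments. The intervals did not overlap, and the log2 ratio was 0.41 (0.26 to 0.56).

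SESN2 and DDIT4 encode proteins that restrain the growth kinase complex mTORC1, sestrin 2 as a leucine sensor and DDIT4 (REDD1) through the TSC complex. SESN2 (ENSG00000130766, chr1:28259527-28282491, plus strand, 10 exons) stood at 8.16 FPKM (7.46 to 8.90) in shControl and 11.0 FPKM (10.2 to 11.9) in shFKBP9, from 510 and 652 fragments. Its log2 ratio was 0.43 (0.26 to 0.60), and the levels did not overlap. DDIT4 (ENSG00000168209, chr10:72273920-72276036, plus strand, 3 exons) stood at 281 FPKM (275 to 286) and 291 FPKM (285 to 297), from 10462 and 10282 fragments. Its levels overlapped at the edges of their intervals, and the log2 ratio was 0.05 (0.01 to 0.09). The fragment count of DDIT4 was lower in shFKBP9 and its FPKM higher, since the shFKBP9 library is the smaller one. The antisense gene DDIT4-AS1 was at 0 fragments in both libraries.

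**Figure D2:**
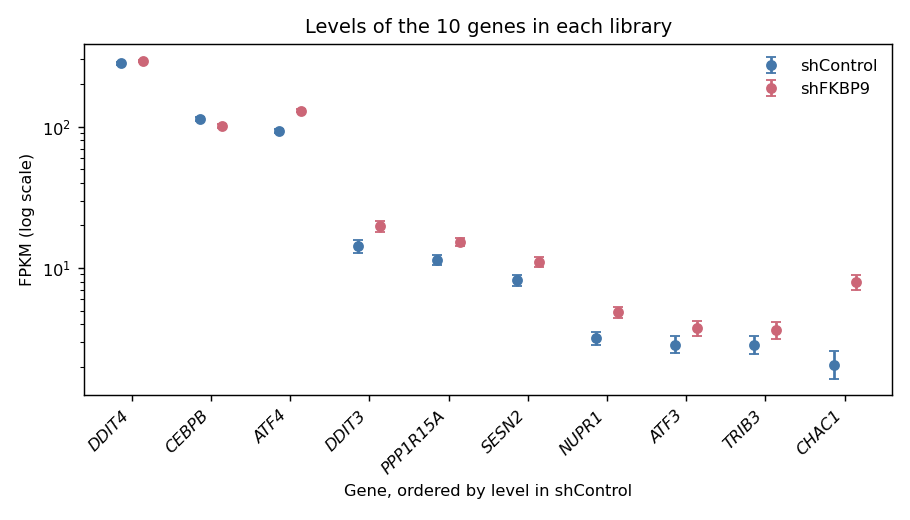
Level of each of the 10 genes in the shControl (blue) and shFKBP9 (red) library, in FPKM on a log axis, with exact 95% Poisson intervals of the fragments as bars. Genes are ordered by their level in shControl. CHAC1 has the lowest level in shControl, 2.07 FPKM, and lies above NUPR1, ATF3 and TRIB3 in shFKBP9, at 7.92 FPKM.

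Set together, 9 of the 10 genes were higher in shFKBP9, where 46.7% of the 12741 genes with 1 FPKM were. The counting interval lay above 0 for the same 9 genes, against 17.2% of all genes, and below 0 for CEBPB, against 20.8%. With 99% intervals it lay above 0 for 7, and those of TRIB3 (-0.05 to 0.72) and DDIT4 (from just under 0 to 0.10) included 0. Their median log2 ratio was 0.42, and 0.41 without CHAC1, beside -0.02 over all 12741 genes. The choice of the genes used this contrast, and nothing is read from these counts. Apart from CHAC1, CEBPB and DDIT4, 7 genes lay between 0.33 and 0.60. By role, the medians were 0.42 for the 4 transcription factors, 0.46 for the 2 co-regulators and 0.43 for the effectors CHAC1, DDIT4 and SESN2. The middle 95% of the 11575 genes ran from -0.48 to 0.47, and 3 members lay above it (CHAC1, NUPR1 and ATF4). Of the 10 genes, 7 lay in the top 5% of ratios. DDIT3 stood just inside the upper limit at a rank of 298, TRIB3 at 745, DDIT4 at 4273 and CEBPB at 8848. The interval of CHAC1 overlapped that of 0 other members.

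**Figure D3:**
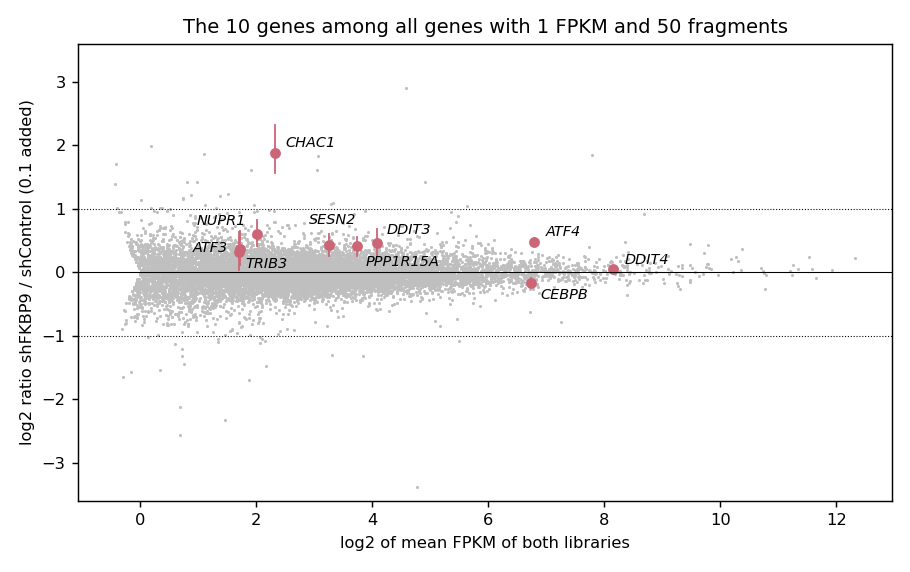
Log2 ratio of shFKBP9 to shControl (0.1 FPKM added) against the log2 of the mean FPKM of both libraries. Grey points are all genes that reached 1 FPKM in one or both libraries and 50 fragments in sum, red points the 10 genes with 95% counting intervals, and dotted lines mark 2-fold. CHAC1 stands alone of the 10 beyond the 2-fold line, at 1.89, while DDIT4 and CEBPB lie near 0 at high levels.

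Between genes, levels in FPKM spanned a wide range. In shControl the order was DDIT4, CEBPB, ATF4, DDIT3, PPP1R15A, SESN2, NUPR1, ATF3, TRIB3 and CHAC1. Among the last 4 of these the counting intervals of neighbours overlapped, and each earlier gene stood apart from the next. In shFKBP9 ATF4 stood above CEBPB, and CHAC1 moved from place 10 to place 7, above NUPR1, ATF3 and TRIB3. There ATF3 and TRIB3 were the only neighbours with overlapping intervals. Among all genes DDIT4 ranked 107 by level in shControl and 112 in shFKBP9, and ATF4 426 and 278. CHAC1 ranked 9923 and 5126, so its ratio was the highest of the 10 and its level moderate. The difference in level was 5.86 FPKM for CHAC1 and 37.0 FPKM for ATF4. These orders rest on the gene lengths in the table. With the length of the canonical transcript, an alternative added after the data were seen, ATF4 took place 2 in both libraries (164 and 230 FPKM, with CEBPB at 120 and 107 FPKM), and NUPR1 took place 9 in shControl and place 10 in shFKBP9.

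The members were then set beside the other genes of their own families. CHAC2, the constitutive relative of CHAC1, stood at 1.88 FPKM in shControl and 1.94 FPKM in shFKBP9, from 45 and 44 fragments. Its log2 ratio was 0.04 (-0.59 to 0.68), an interval that did not reach that of CHAC1. PPP1R15B, the constitutive partner of PPP1R15A, stood at 8.85 and 8.41 FPKM with a log2 ratio of -0.07 (-0.22 to 0.07), apart from the interval of PPP1R15A. TRIB1 was at -0.10 (-0.30 to 0.10), and TRIB2, at 12.6 and 10.6 FPKM, at -0.24 (-0.38 to -0.11), below the interval of TRIB3. For the sestrins, SESN1 was at 0.08 (-0.23 to 0.40) and SESN3 at 0.02 (-0.52 to 0.58), and both intervals overlapped that of SESN2. DDIT4L, at 52 and 64 fragments, was at 0.34 (-0.17 to 0.93).

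Relatives of the transcription factors that reached 1 FPKM were higher, though the interval of BATF3 included 0. The lower ones were under 1 FPKM. ATF5, a stress-induced relative of ATF4, stood at 11.1 FPKM in shControl and 15.3 FPKM in shFKBP9, a log2 ratio of 0.45 (0.30 to 0.61). CEBPG, a dimer partner of ATF4, stood at 7.63 and 10.2 FPKM, at 0.41 (0.26 to 0.57). CEBPD was at 0.29 (0.13 to 0.46), so that the 3 expressed relatives of CEBPB itself (DDIT3, CEBPD and CEBPG) were all higher while CEBPB was lower. Among relatives of ATF3, JDP2 was at 0.26 (0.08 to 0.46) and BATF3 at 0.28 (-0.12 to 0.70). BATF2, with 28 and 11 fragments, was at -0.98 (-2.43 to -0.22). CEBPE held 13 and 10 fragments, and CEBPA, BATF and NUPR2 were at 0 fragments in both libraries. Of the 17 relatives, 11 reached 1 FPKM, 8 of those were higher, and the interval lay above 0 for 4 and below 0 for 1, with a median of 0.26.

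**Figure D4:**
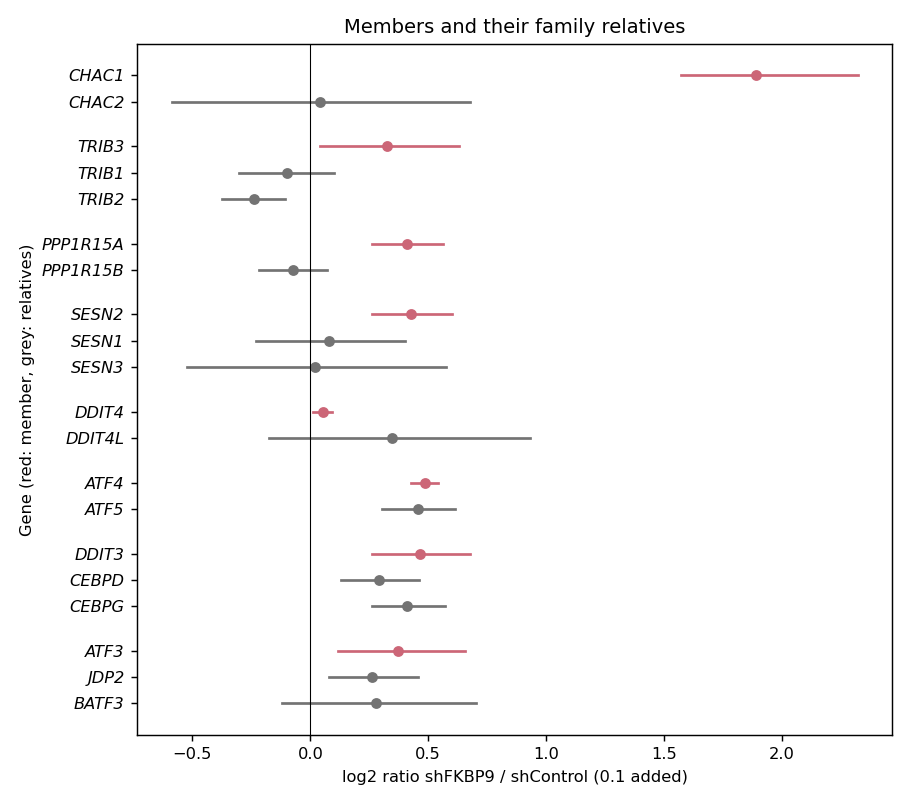
Log2 ratios of shFKBP9 to shControl (0.1 FPKM added) with 95% counting intervals for 8 members (red) and their relatives with at least 50 fragments in both libraries together (grey). Each block is 1 family; the C/EBP genes other than CEBPB are drawn under DDIT3. CHAC2, TRIB1, TRIB2 and PPP1R15B lie at or below 0.04, whereas ATF5, CEBPG, CEBPD and JDP2 lie between 0.26 and 0.45.

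Upstream of ATF4, a list of 18 genes for the eIF2α kinases, eIF2, its exchange factor and its phosphatase had 9 higher and 9 lower, with the interval above 0 for 4 and below 0 for 4 and a median of 0.00. EIF2AK3, which encodes the ER stress kinase PERK, was at 0.08 (-0.13 to 0.30). The highest was NCK1, an adaptor that acts on eIF2α dephosphorylation, at 0.36 (0.13 to 0.61), and the lowest EIF2B4, a subunit of the exchange factor, at -0.21 (-0.38 to -0.04). PPP1CA, the phosphatase catalytic subunit, had the highest level, 133 FPKM in shControl and 134 FPKM in shFKBP9. Phosphorylation of eIF2α was not measured in these libraries.

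Downstream of ATF4, 34 of 39 other targets reached 1 FPKM. Of these, 28 were higher and 6 lower, the interval lay above 0 for 21 and below 0 for 1, and the median was 0.16. Over all 12741 genes, as above, 46.7% were higher, and the interval lay above 0 for 17.2% and below 0 for 20.8%, and these shares also stand beside the counts of the other lists. SLC7A11, the cystine importer that feeds glutathione synthesis, was the only target more than 2-fold higher, at 0.590 FPKM in shControl and 1.43 FPKM in shFKBP9 (103 and 236 fragments), a log2 ratio of 1.14 (0.93 to 1.62). The cationic amino acid transporter SLC7A1 was lowest, at -0.18 (-0.23 to -0.12), from 5103 and 4283 fragments. VEGFA had the highest level, 91.9 and 101 FPKM, at 0.13 (0.11 to 0.16). The genes STC2, a secreted glycoprotein, and PSAT1, of serine synthesis, were named after their values were seen. STC2 stood at 38.4 and 64.4 FPKM, at 0.75 (0.69 to 0.80), and PSAT1 at 17.4 and 26.3 FPKM, at 0.59 (0.45 to 0.74). The other serine and glycine enzymes of the list were nearer 0, with PHGDH at 0.08 (0.005 to 0.15), PSPH at -0.06 (-0.31 to 0.18) and SHMT2 at -0.03 (-0.11 to 0.05). The one-carbon enzymes ALDH1L2, at 0.54 (0.37 to 0.74), and MTHFD2, at 0.43 (0.33 to 0.53), were higher. ASNS, the classic amino acid response gene, also named afterwards, was low, with 21 and 38 fragments and a log2 ratio of 0.73 (0.13 to 1.78).

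Of the cytosolic tRNA synthetases, some of which ATF4 induces when amino acids are short, 12 were on the list, not the whole class. Of these 11 were higher and the interval lay above 0 for 9 and below 0 for none, with a median of 0.11. EPRS was highest, at 0.47 (0.38 to 0.57), WARS lowest, at -0.01 (-0.08 to 0.06), and AARS had the highest level, 77.6 and 89.9 FPKM. The letters TGATGCAA occurred in the windows of 9 of these 12 genes and in 16 of the 39 other ATF4 targets, beside the 2.62% of all windows. They occurred in 3 of the 17 relatives, 3 of the 18 genes around eIF2α, 2 of 18 genes of glutathione handling, 1 of 29 mTORC1 regulators and 1 of 12 NRF2 targets, and in none of the 15 p53 targets, 14 hypoxia targets, 16 immediate early genes, 11 death and survival genes and 8 glucocorticoid targets. Some genes, such as SLC7A11, are on more than 1 list. Of protein-coding genes outside the 10, matched by symbol and with 1 FPKM, the 196 with the letters in their window, other ATF4 targets among them, had a median log2 ratio of 0.04, with the interval above 0 for 26.0%. The 9866 such genes without the letters had a median of -0.02, with the interval above 0 for 19.3%. The 9 tRNA synthetases with the letters are in neither group, because their symbols differ between the table and GENCODE. These medians and shares describe 1 pair of libraries.

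CHAC1 acts on glutathione, and 14 of 18 other genes of glutathione handling reached 1 FPKM, with 10 higher, 4 lower, the interval above 0 for 5 and below 0 for 2, and a median of 0.06. Beside SLC7A11, CNDP2, a dipeptidase that cleaves the cysteinylglycine left by CHAC1, was lowest at -0.31 (-0.45 to -0.19), from 1154 and 876 fragments. GPX1, a glutathione peroxidase, had the highest level, 308 and 313 FPKM, at 0.03. SESN2 and DDIT4 act on mTORC1, and of its 29 regulators and subunits 26 reached 1 FPKM, with 14 higher and 12 lower, the interval above 0 for 7 and below 0 for 7, and a median of 0.01. CASTOR2, of an arginine sensor family, was lowest at -0.82 (-1.43 to -0.29) with 78 and 41 fragments, RRAGB, a Rag GTPase, highest at 0.33 (0.01 to 0.67), and TXNIP had the highest level, 138 and 150 FPKM.

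Among 11 genes of cell death and survival linked to CHOP, 8 reached 1 FPKM, 6 of them higher and 2 lower, the interval above 0 for 4 and below 0 for 1, with a median of 0.11. PMAIP1 (NOXA), a BH3-only protein, stood at 3.39 FPKM in shControl and 5.73 FPKM in shFKBP9, from 137 and 220 fragments, and was highest at 0.74 (0.45 to 1.08). The interval below 0 was that of BID, another BH3-only gene, named after its values were seen, at -0.27 (-0.40 to -0.15) from 1238 and 969 fragments. BCL2, the anti-apoptotic gene that CHOP lowers, stayed under 1 FPKM, with 74 and 53 fragments and a log2 ratio of -0.30 (-0.94 to 0.12). TNFRSF10B (DR5), a death receptor and CHOP target, was at 0.05 (-0.04 to 0.13), and MCL1, an anti-apoptotic gene and 1 of the 4 with an interval above 0, had the highest level, 63.4 and 67.8 FPKM.

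Because several members answer to other signals, target lists of those signals were set beside them. Of 13 expressed p53 targets 8 were higher, the interval lay above 0 for 3 and below 0 for 2, with a median of 0.08, from TP53I3 at -0.29 (-0.50 to -0.07) to MDM2 at 0.23 (0.11 to 0.37), and CDKN1A stood at 92.1 and 98.6 FPKM. Of 14 hypoxia targets 11 were higher, the interval lay above 0 for 10 and below 0 for 1, and the median was 0.16, the same as that of the other ATF4 targets to 2 decimals. BNIP3L was highest at 0.47 (0.41 to 0.53), EGLN3 lowest at -0.37 (-0.52 to -0.23), and CA9 had the highest level, 129 and 148 FPKM. VEGFA is on both lists. Of 13 expressed immediate early genes 4 were higher and 9 lower, the interval lay above 0 for 2 and below 0 for 3, with a median of -0.03, from FOS at -0.58 (-1.25 to -0.06) to FOSL1 at 0.18 (0.12 to 0.24), and IER3 stood at 169 and 168 FPKM. NRF2 targets had a median of -0.04 with 5 of 12 higher, SLC7A11 among them, and the interval above 0 for 3 and below 0 for 4, PGD lowest at -0.31 (-0.38 to -0.24) and NQO1 at 92.6 and 91.1 FPKM. Of 7 expressed glucocorticoid targets 2 were higher, the interval lay above 0 for 1 and below 0 for 2, with a median of -0.02, from PER1 at -0.46 (-0.66 to -0.29) to KLF9 at 0.35 (0.11 to 0.61), and ERRFI1 stood at 70.0 and 70.8 FPKM. The part of these signals in the levels of the 10 genes was not tested.

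Markers of other cell types were low. KRT14, a keratinocyte gene, had 1 fragment in shControl and 24 in shFKBP9, and KRT5 8 and 17, all under 1 FPKM. CD14 had 13 and 24 fragments, and PTPRC and CD3E were at 0 in both libraries, so that 2 of 3 leukocyte markers were not seen. The part of these markers in the differences above was not tested. In bulk RNA, a change in the share of cells that express a gene and a change in RNA per cell cannot be told apart.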

How the data were processed

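RNA from SF-539 cells with shControl or shFKBP9 was prepared with the NEBNext Ultra RNA kit and sequenced, 1 library per condition. Adapter-bearing, N-containing and low-quality reads were discarded by the authors, who aligned the read pairs to hg38 with HISAT2 2.0.5, counted them per gene with featureCounts 1.5.0-p3 and compared the conditions with edgeR. The authors deposited FPKM, which are scaled by library size and gene length.

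Fragments were recovered as FPKM times gene length divided by the step of each library, and 100% of values were whole to within 0.01. On a gene of 1 kilobase, 1 fragment was worth 0.0552 FPKM in shControl and 0.0582 FPKM in shFKBP9. At least 1 fragment lay on 24663 and 24563 genes, and mitochondrial genes held 2.13% and 2.20%. A count test was not run, since 1 library per condition leaves no residual spread. The members and lists were chosen with earlier results of these data known. The genes named in the text were the members, their relatives, the 3 protein-coding genes next to CHAC1 by ratio on each side, and of each list those changed more than 2-fold, the highest and lowest ratio with at least 50 fragments and the highest level. Genes that overlap a member and markers from a list of cell type genes were also named. EIF2AK3, TNFRSF10B, BID, STC2, PSAT1, PHGDH, PSPH, SHMT2, ALDH1L2, MTHFD2 and ASNS fall outside this rule and were named after their values were seen. Motifs were searched in hg38 with GENCODE release 44 and in RefSeq promoters, and symbols were matched between these and the table. The window of NUPR1 is not reported here. The recovery and the intervals were tried on simulated libraries that held counting error only. That trial cannot speak to the spread between cultures or clones. Alternatives were 1 or 0.01 in place of 0.1, median scaling, TPM, other minimums, 99% intervals, summed ATF4 copies and canonical lengths. Calculations ran in Python 3.11.15 with scipy 1.17.1, pandas 2.3.3 and numpy 2.4.6, and plots in matplotlib 3.10.9.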

Additional observations from a re-analysis of the deposited data

How the results depend on the processing

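Each of the 10 log2 ratios kept its sign under every alternative run. With 1 FPKM added the log2 ratio of CHAC1 was 1.54 in place of 1.89. Ranks by ratio were taken with 0.1 FPKM added only. The share of genes more than 2-fold higher, 2.02%, was 1.08% with 1 FPKM added, 7.36% with no minimum, 0.343% where both libraries had to reach 1 FPKM and 0.213% for protein-coding genes. With 99% intervals, 7 of the 10 genes had an interval above 0, without TRIB3 and DDIT4. Median scaling moved each of the 10 log2 ratios up by 0.02, and TPM moved 9 of them down, by at most 0.02, and CHAC1 up to 1.91. With canonical transcript lengths 8 places in the orders of level moved, among them CEBPB to place 3 in shControl, ATF3 to 7 and 8, and TRIB3 to 8 and 9. No replicate could be left out and no paired analysis was possible because each condition has 1 library. Depth limits CHAC1, with 77 fragments in shControl, and the low relatives.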
